A study of Drosophila melanogaster with 4 samples.

Results

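Start sites that lie inside annotated 5' untranslated regions (5' UTRs), past the annotated transcription start site (TSS), were described in testes of Drosophila melanogaster with and without knockdown of kmg. Cap analysis of gene expression (CAGE) was used, in which reads begin at the cap of an RNA; each such read, or tag, gives a start position with its strand. A consensus cluster is a group of neighbouring start positions on 1 strand, defined over both groups. Its dominant position was taken from the overlapping tag cluster with the most tags in either group. A cluster was included when that position lay more than 100 bp from every annotated TSS on its strand and within an annotated 5' UTR in the sense direction. The rule found 1983 of 43632 consensus clusters, 4.54% (95% Wilson interval 4.35 to 4.74). They belong to 1535 genes, of which 1225 held 1 such cluster, 219 held 2, and 91 held 3 or more. The rule used position only and no difference between the groups.

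The 5' UTR is the part of an mRNA between its cap and its start codon. Ribosomes enter there and scan towards the coding sequence, and the length, structure and upstream reading frames of the 5' UTR set how often they reach it. A start within the annotated 5' UTR of a transcript can give an mRNA with the protein code of that transcript and a shorter leader. Alternative promoters of this kind are common in Drosophila testis, where spermatocytes switch on a large programme of genes. Kmg (Kumgang) is a zinc finger protein made in spermatocytes that acts with the chromatin remodeler Mi-2.

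The knockdown group carried bamGAL4 and a KmgRNAi transgene, and the control group carried bamGAL4 without it. The driver bamGAL4 switches on transgenes in late spermatogonia, so it is active in the germline and not in the somatic cells of the testis. In both groups flies were crossed at 25 °C for 3 days, progeny were moved to 29 °C, and testes came from males aged 0 to 2 days. Each library used 10 µg of total RNA from 150 pairs of testes, which pools many males. There were 2 libraries per group, and the deposited tables give 1 pooled value per group. The data therefore hold no replicate spread and no test across samples, and every difference below compares the pooled libraries alone. All intervals are at 95% (Wilson for a share, exact binomial for a ratio of tag counts) and cover counting error only. Reads were 150 bp long (pairs, with read 1 used) in the knockdown and 76 bp (single) in control, so genotype and read length cannot be told apart.

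The tables held 34975246 knockdown tags and 56519714 control tags. Levels are tags per 1000000 tags of the group's clusters, written TPM. Over the 25902 consensus clusters called in both groups, the knockdown was higher by a median of 0.71 on the log2 scale, or 1.64-fold, and calls that depend on removing this shift are named as such. The kmg gene stood at 11.6 TPM in the knockdown and 48.5 TPM in control. The summed level of 10 spermatocyte and spermatid marker genes was 4926 TPM in the knockdown and 7921 TPM in control, and none of the 10 was at 0 in either group. Their median log2 change was 0.20, so the lower sum does not stand for a general fall. By the 4-fold rule given below 1 rose, twe (299 TPM in the knockdown, 65.3 TPM in control). Another 1 fell, dj (569 TPM in the knockdown, 2978 TPM in control). Markers of other tissues also differed. The 6 muscle sheath genes summed to 420 TPM in the knockdown and 1325 TPM in control, all 6 were lower in the knockdown, and 1 of them passed the 4-fold rule given below. The 5 accessory gland genes summed to 66.7 TPM in the knockdown and 165 TPM in control. Of these, 4 fell, with Acp26Aa at 0 in the knockdown, while Acp36DE was at 53.8 TPM in the knockdown and 16.5 TPM in control. The 4 cyst cell genes summed to 154 TPM in the knockdown and 53.0 TPM in control; of these, so was at 121 TPM in the knockdown and 19.5 TPM in control, and tj and eya were lower in the knockdown. The 4 neuron genes summed to 88.9 TPM in the knockdown and 68.2 TPM in control, with 3 up and 1 down. The 4 early germline genes summed to 469 TPM in the knockdown and 708 TPM in control, but only Rbfox1 was lower in the knockdown (374 TPM, against 669 TPM in control), and vas, bam and zpg were higher without passing the rule. The 4 fat body genes summed to 125 TPM in the knockdown and 153 TPM in control, with Yp1 at 0 in both. The 3 hemocyte genes summed to 0.429 TPM in the knockdown and 15.2 TPM in control, with NimC1 and He at 0 in both. Their part in the results below was not tested. In such bulk samples fewer cells of a type and less RNA per cell cannot be told apart.

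As a group, the 5' UTR clusters took 3.09% of tags in the knockdown and 3.06% of tags in control, so their total share of starts was nearly equal. Clusters at annotated TSSs took 70.2% of tags in the knockdown and 91.5% in control, and clusters in coding exons took 10.9% in the knockdown and 1.83% in control. The median 5' UTR cluster stood at 3.47 TPM in the knockdown and 1.34 TPM in control. At 100 TPM or more there were 70 clusters in the knockdown and 64 in control. Both groups had a called cluster at 1550 of the 1983, or 78.2% (76.3 to 79.9). At 341 (17.2%) the knockdown alone had one, and at 92 (4.64%) control alone had one. Over all consensus clusters the knockdown alone had one at 37.7% and control alone at 2.92%.

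A cluster was tested when it reached 1 TPM in either group, which 1938 of the 1983 did and 45 did not. It was called gained when log2((knockdown + 1)/(control + 1)) was 2 or more, which is 4-fold, and lost at -2 or less. This scale understates changes of low clusters. By this rule 394 of the 5' UTR clusters were gained, 20.3% (18.6 to 22.2), and 62 were lost, 3.20% (2.50 to 4.08). Over all consensus clusters tested, 33.1% were gained and 3.61% were lost. The gained share of 5' UTR clusters thus lay below that of all clusters, and the lost share lay near it. Their median log2 change was 0.98, against 1.49 over all tested clusters.

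Gained 5' UTR clusters stood between those of annotated TSSs and those of coding exons. At annotated TSSs 7.67% of tested clusters were gained and 8.24% were lost, with a median log2 change of -0.03. In coding exons 46.5% were gained and 0.736% were lost, with a median of 1.89. The intervals of these gained shares did not overlap with each other. The order held within a band of level: among clusters that reached 10 to 100 TPM, 32.1% of 5' UTR clusters were gained (28.0 to 36.4), against 9.0% at annotated TSSs (8.26 to 9.80), 84.5% in coding exons (83.0 to 85.9) and 46.1% of all clusters (45.2 to 47.0). At 100 TPM or more, 10 of the 93 5' UTR clusters were gained and 10 were lost, 10.8% each (5.95 to 18.7). Over all clusters at that level 12.2% were gained and 13.5% were lost, both within that interval. With the shift between the groups removed, 8 of the 93 were gained and 20 were lost. Of all 1938, 214 were gained with that shift removed, 11%, and 105 were lost, 5.42%, against 20.7% gained and 5.64% lost over all clusters. The split of gained to lost therefore moved strongly with the scaling, and the median log2 change of the 5' UTR clusters became 0.48.

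**Figure D1:**
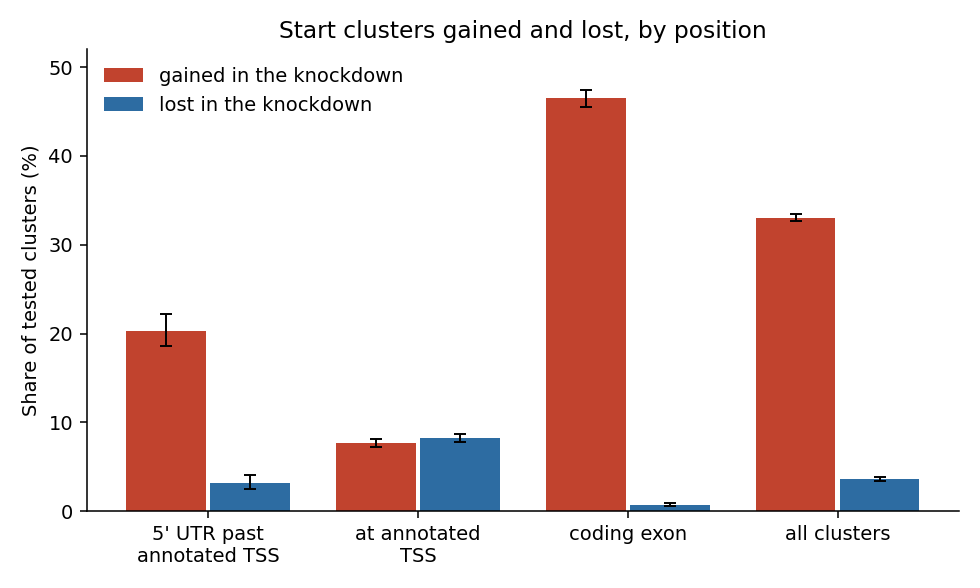
Share of tested consensus clusters that were gained and lost (%), by place in the gene models, with 95% Wilson intervals. 5' UTR clusters were gained in 20.3% of cases, more often than clusters at annotated TSSs (7.67%) and less often than coding-exon clusters (46.5%).

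**Figure D2:**
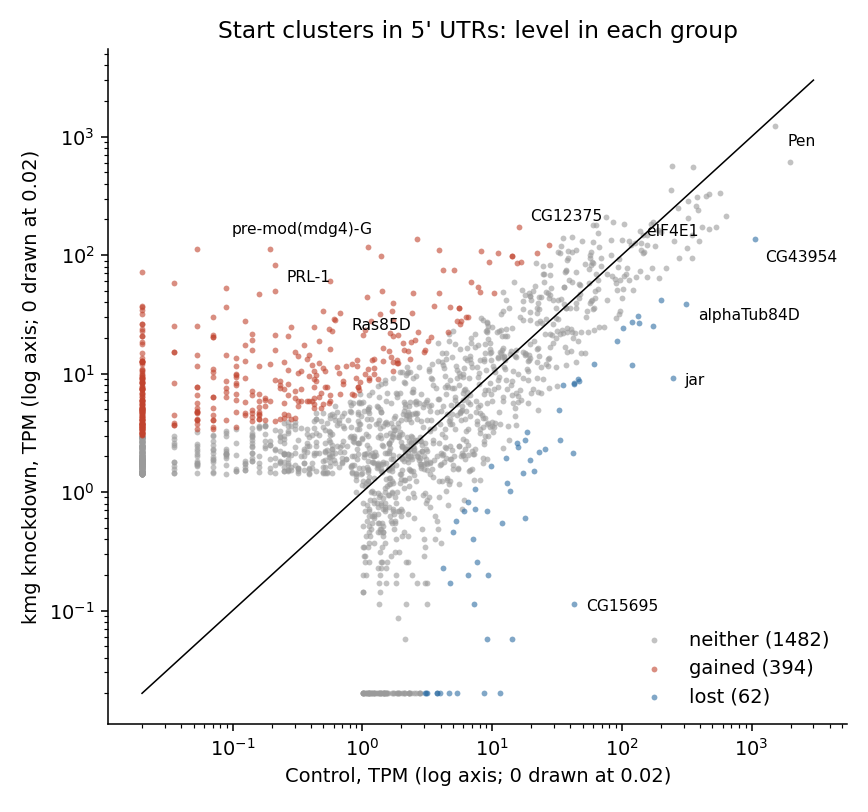
Level of each 5' UTR cluster tested in the knockdown and in control (TPM, log axes, with levels of 0 drawn at the lower end), coloured by gained, lost or neither, with some of the named genes; the line marks equal levels. The 62 lost clusters include several of the highest control levels, such as alphaTub84D and jar, and Pen stands high in both groups.

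The place of the 5' UTR clusters in their leaders was described next. The rule requires more than 100 bp from every annotated TSS, so short leaders are mostly left out. The lengths and distances below therefore follow in part from the rule, and leaders of other genes were not set beside them. The annotated 5' UTRs that held them had a median length of 495 bases, measured on the spliced transcript whose TSS is nearest upstream. The dominant start lay a median of 250 bases (quartiles 168 and 407) downstream of that TSS along the spliced transcript, and at most 3863. On the genome the median distance was 276 bp (quartiles 177 and 521.5). A start there removed a median of 62.4% of the annotated 5' UTR (quartiles 40 and 81) and left 163 bases before the start codon (quartiles 68 and 402.5). At least 50% of the leader was removed by 1266 clusters (63.8%) and at least 90% by 247 (12.5%). In 359 clusters, 18.1% (16.5 to 19.9), fewer than 50 bases were left, and in 128, 6.45%, fewer than 20.

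The first exon held 1497 of the 1983 (75.5%), exon 2 held 384 (19.4%) and later exons 102 (5.14%). Of the 486 in later exons, 53 (10.9%) lay within 10 bases of the start of their exon. A further TSS of the same gene was annotated downstream of 590 clusters (29.8%). A coding exon of another transcript covered the dominant position of 254 (12.8%), and 5' UTRs of more than 1 gene covered 46 (2.32%). For 241 clusters (12.2%) the span, though not the dominant position, came within 100 bp of an annotated TSS or covered one.

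The distance of 100 bp sets who is included, so both sides of it were compared as a description. The 49 clusters at 101 to 105 bp had median levels of 2.92 TPM in the knockdown and 3.79 TPM in control, with 5 gained and 3 lost. The 53 clusters in 5' UTRs at 96 to 100 bp, just outside the rule, had median levels of 8.15 TPM in the knockdown and 3.98 TPM in control, with 8 gained and 0 lost.

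**Figure D3:**
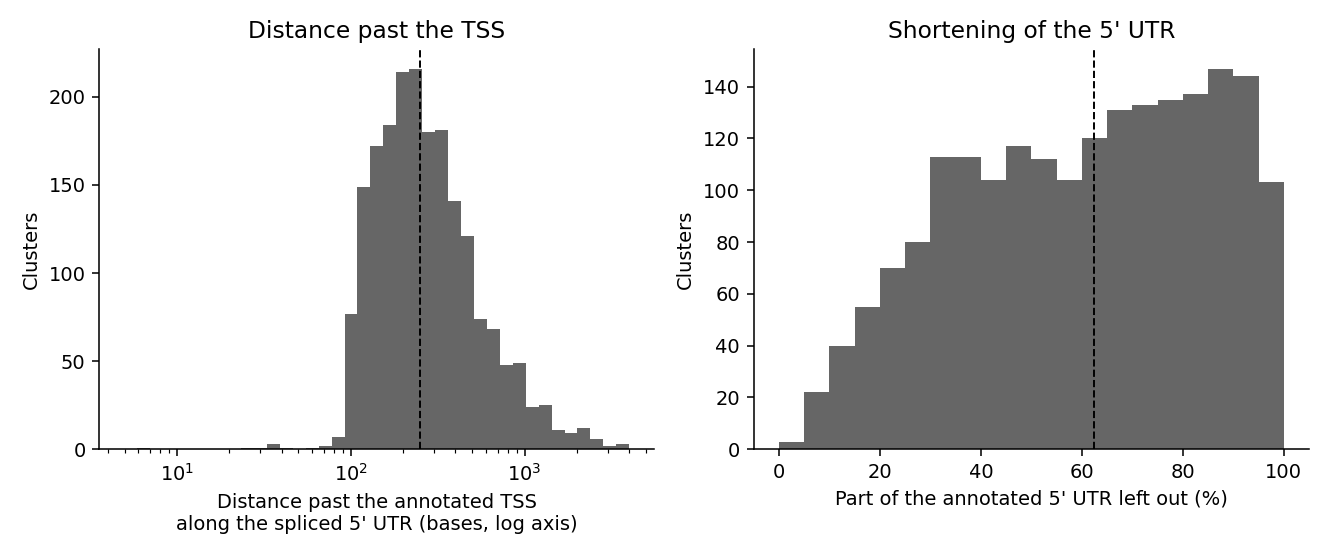
Distribution over the 5' UTR clusters of the spliced distance from the annotated TSS (bases) and of the share of the annotated 5' UTR removed (%). The dashed lines mark the medians, 250 bases and 62.4%.

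Gained clusters were least frequent near the annotated TSS. By spliced distance, 13.5% were gained at 101 to 200 bases (90 of 669, interval 11.1 to 16.2), 22.4% at 201 to 500 (204 of 910, 19.8 to 25.2), 27.9% at 501 to 1000 (69 of 247, 22.7 to 33.8) and 32.6% beyond 1000 (30 of 92, 23.9 to 42.7). The interval at 101 to 200 bases lies below those of the bins beyond 200 bases, which overlap. At 1 to 100 bases 1 of 20 was gained (0.888 to 23.6). By genomic distance the share was 12.0% at 101 to 200 bp, 22.3% at 201 to 500, 21.7% at 501 to 1000 and 31.2% beyond 1000. Where the span came within 100 bp of an annotated TSS, 10.4% were gained (25 of 241, 7.13 to 14.9), against 21.7% of the others (19.8 to 23.8). The part of such spans in the low share near the TSS was not tested. By what was left of the leader, 29.7% were gained where 0 to 19 bases were left (38 of 128, 22.5 to 38.1) and none of the 128 was lost, against 18.5% where 200 or more were left (158 of 853, 16.1 to 21.3). The gained share was 17.9% in the first exon (261 of 1461) and 27.6% in exon 2 (104 of 377). The median level was 3.40 TPM in the knockdown and 1.91 TPM in control at 101 to 200 bases, and 3.83 TPM in the knockdown and 0.602 TPM in control beyond 1000. Gained clusters removed a median of 70.2% of the leader and left 133 bases, and lost clusters removed 54.2% and left 229.

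**Figure D4:**
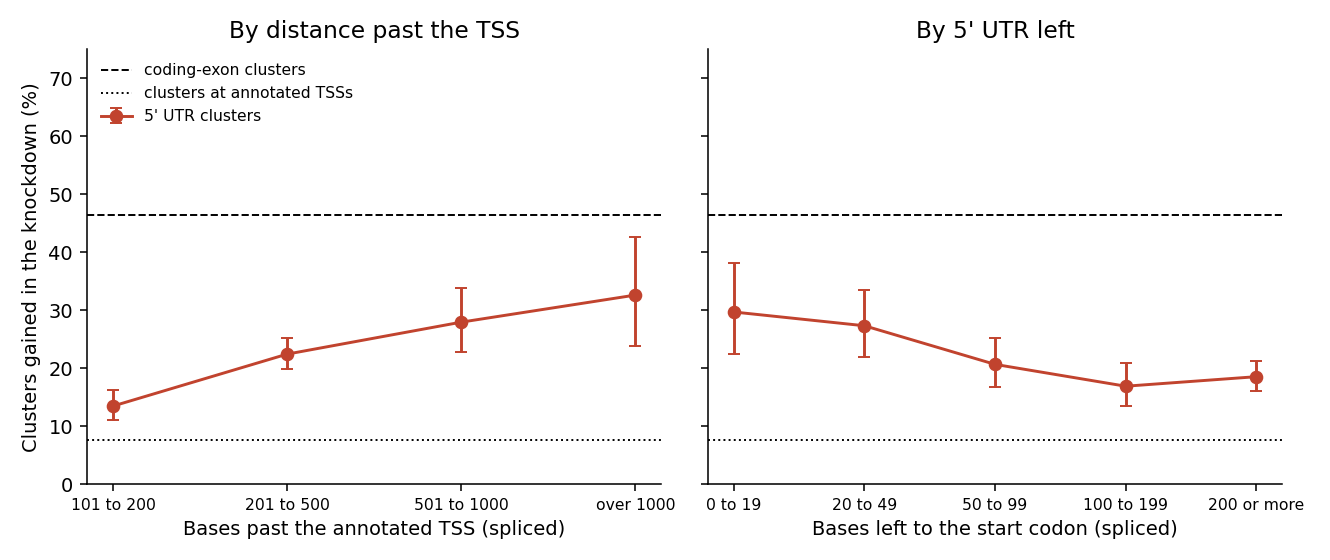
Share of 5' UTR clusters gained (%), by spliced distance from the annotated TSS and by the bases left before the start codon, with 95% Wilson intervals the share of coding-exon clusters as a dashed line (46.5%) and that of clusters at annotated TSSs as a dotted line (7.67%). The gained share was 13.5% at 101 to 200 bases and 32.6% beyond 1000 bases. The 20 clusters tested at 1 to 100 bases are not drawn.

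The X chromosome held 325 of the 5' UTR clusters, 16.4% (14.8 to 18.1), against 10.7% of all consensus clusters, 14.9% of those at annotated TSSs and 9.17% of those in coding exons. Of the X clusters tested, 45 of 314 were gained, 14.3% (10.9 to 18.6), against 21.2% to 21.9% on each of the 4 large autosome arms, with intervals that overlap that of X on each arm (17.5 to 25.4 on 3L). The same order held for all clusters, of which 24.0% were gained on X (22.8 to 25.3) and 33.7% to 34.5% on the 4 arms, so it was not particular to 5' UTR clusters. Cluster shape also lay between the other places. Sharp clusters, with an interquantile width of 10 bp or less, made up 20.7% of 5' UTR clusters (19 to 22.5), 26.8% of those at annotated TSSs and 13.9% of those in coding exons. Each width was taken from the group whose tag cluster held more tags. In coding exons 52.5% of clusters were called in the knockdown alone, against 17.2% in 5' UTRs and 5.57% at annotated TSSs. The part of this difference in the order of shapes was not tested. Of gained 5' UTR clusters 6.60% were sharp, of lost ones 37.1%, and of those neither gained nor lost 22.9%. Widths of gained and lost clusters thus come mostly from different groups. The sharp share of tested 5' UTR clusters also differed with level, at 25.6% for 1 to 10 TPM and 7.26% for 10 to 100 TPM. The parts of group and level in the contrast of gained and lost were not tested. Among the 399 clusters with at least 5 TPM in both groups, the dominant positions of the groups were more than 10 bp apart in 44.1% (39.3 to 49.0), against 26.8% at annotated TSSs and 47.6% in coding exons.

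The 10 gained clusters with the highest knockdown level stood at 104 to 172 TPM. The highest was in CG12375, on chromosome 2L from 8126543 to 8126736 on the minus strand (BDGP6, the dm6 assembly), in exon 2 of the leader. It held 172 TPM in the knockdown and 16.1 TPM in control, a ratio of 10.7 (counting interval 9.97 to 11.5). It left 13 of the 151 bases of the annotated 5' UTR. This cluster was already the main start of CG12375 in control, where it took 80.2% of the starts (77.8 to 82.4), against 96.7% in the knockdown (96.2 to 97.1). A share of starts here is the cluster's tags over its own tags plus those of the gene's clusters at annotated TSSs. Other leader clusters of the gene are left out of it.

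Clusters of 2 pre-mod(mdg4) genes were among the 10. The pre-mod(mdg4) genes encode 3' parts that are joined by trans-splicing to the common part of mod(mdg4), a BTB domain chromatin protein. The cluster of pre-mod(mdg4)-AA, on chromosome 3R from 21371188 to 21371374, held 138 TPM in the knockdown and 2.62 TPM in control, a ratio of 52.7 (44.7 to 62.5). It began 2286 bases past the annotated TSS and left 64 of 2350 bases, and no cluster was called at an annotated TSS of the gene. The cluster of pre-mod(mdg4)-G, on chromosome 3R from 21355440 to 21355581, held 112 TPM in the knockdown and 0.195 TPM in control, where it rested on 11 tags, a ratio of 577 (322 to 1158). It began 3863 bases past the TSS, the longest spliced distance of all 1983, and its position is also coding sequence in another transcript. The annotated TSSs of pre-mod(mdg4)-G held 3.00 TPM in the knockdown and 3.89 TPM in control.

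Mpi, Ipp and Vamp7 were also among the 10. Mpi encodes mannose phosphate isomerase, which links fructose and mannose metabolism. Its cluster, on chromosome 3R from 9759771 to 9760030, held 121 TPM in the knockdown and 27.5 TPM in control and left 15 of 156 bases. The annotated TSS of Mpi held 37.9 TPM in the knockdown and 134 TPM in control, so the share of starts in the leader was 76.2% in the knockdown (75.1 to 77.3) and 17.0% in control (16.2 to 17.8). The cluster of Ipp, an inositol polyphosphate phosphatase, held 104 TPM in the knockdown and 11.1 TPM in control and left 18 of 133 bases; its span came within 100 bp of the TSS. The cluster of Vamp7, a vesicle SNARE, held 104 TPM in the knockdown and 22 TPM in control. With the shift between the groups removed, Mpi (log2 1.39) and Vamp7 (1.48) no longer passed the rule.

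P58IPK encodes a DnaJ co-chaperone of the endoplasmic reticulum. Its cluster on chromosome 3R from 9587115 to 9587416 held 111 TPM in the knockdown and 3.91 TPM in control, a ratio of 28.5 (24.8 to 32.7), and left 157 of 421 bases. The cluster of scny, a ubiquitin-specific protease, held 108 TPM in the knockdown and 8.17 TPM in control, a ratio of 13.2 (12.0 to 14.6). CG42784 and CG43897, without a role given here, complete the 10. The CG42784 cluster held 118 TPM in the knockdown and 1.10 TPM in control and left 17 of 458 bases. The CG43897 cluster held 112 TPM in the knockdown and 0.0531 TPM in control, where it rested on 3 tags. The consensus held a further 27 tags there that belong to neither group's called clusters. The ratio for CG43897 was 2114 (723 to 10254) on the called tags and 211 (148 to 314) with all 27 counted as control tags.

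Among the 394 gained clusters, 328 lay in genes whose annotated TSS level could be tested. That level rose in 19 of them, fell in 12 and was within 2-fold in 205 (62.5%, 57.1 to 67.6). For most of the 328 the leader cluster was thus gained while the gene's annotated start passed the rule in neither direction. For the 1260 5' UTR clusters that were neither gained nor lost, the annotated TSS level rose in 44, fell in 57 and was within 2-fold in 794 (63.0%).

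The 6 lost clusters with the highest control level stood at 136 to 1072 TPM in control. The alphaTub84D gene encodes an alpha tubulin with a near-identical paralog, alphaTub84B, so its counts are uncertain where reads fit both. Its cluster, on chromosome 3R from 7531027 to 7531193, held 38.7 TPM in the knockdown and 314 TPM in control, 8.11-fold lower (7.67 to 8.58). The annotated TSS of alphaTub84D held 44.9 TPM in the knockdown and 59.3 TPM in control, so control testes used the leader start for 84.1% of the starts and knockdown testes for 46.3%. The jar gene encodes myosin VI, which stabilises actin cones as spermatids separate. Its cluster, on chromosome 3R from 24271048 to 24271156, held 9.26 TPM in the knockdown and 248 TPM in control, 26.7-fold lower (24 to 30). The annotated TSSs of jar held 19.1 TPM in the knockdown and 11.2 TPM in control. The span of the jar cluster came within 100 bp of an annotated TSS.

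The highest lost cluster lay on chromosome 3L from 16711225 to 16711382, where 5' UTRs of CG43954 and another gene overlap. It held 137 TPM in the knockdown and 1072 TPM in control, 7.85-fold lower (7.62 to 8.08). Cdc14, a phosphatase, had a cluster at 41.5 TPM in the knockdown and 200.1 TPM in control, 4.82-fold lower. The clusters of CG6333 (25.4 TPM in the knockdown, 173 TPM in control) and CG15125 (26.6 TPM in the knockdown, 136 TPM in control) lay in genes with no cluster called at an annotated TSS. The span of the CG15125 cluster came within 100 bp of an annotated TSS. For 56 of the 62 lost clusters the annotated TSS level of the gene could be tested. That level rose in 1, fell in 5 and was within 2-fold in 26. All 6 muscle markers and 4 of the 5 accessory gland markers were also lower in the knockdown, with the sums given above, and their part in these losses was not tested.

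The 6 most abundant 5' UTR clusters that moved by less than 2-fold were high in both groups. With the shift between the groups removed, 5 of these 6, all but mbf1, were lower in the knockdown by more than 2-fold, and none passed the 4-fold rule. Pen encodes an importin alpha used in nuclear import, and its cluster held 1221 TPM in the knockdown and 1526 TPM in control. The cluster of mbf1, a transcriptional coactivator, held 558 TPM in the knockdown and 355 TPM in control. The Pen span came within 100 bp of the annotated TSS, and the mbf1 span covered it. The spans of CG3330 (333 TPM in the knockdown, 574 TPM in control) and CG6304 (315 TPM in the knockdown, 442 TPM in control) also covered theirs. Hsp60C, a mitochondrial chaperonin of the testis, had a cluster at 327 TPM in the knockdown and 471 TPM in control, in exon 2 and 5975 bp from the TSS on the genome, but 208 bases along the spliced transcript. It took 71.9% of the Hsp60C starts in the knockdown (71.1 to 72.5) and 66.8% in control (66.3 to 67.2). The cluster of CG7220 held 308 TPM in the knockdown and 383 TPM in control, and its shares of starts were 61.1% in the knockdown and 61.8% in control.

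The 5 clusters furthest along the spliced leader, among those that reached 10 TPM, were those of both pre-mod(mdg4) genes, PAPLA1, CG9164 and CG42505. The cluster of PAPLA1, a phospholipase, began 3476 bases past the TSS and held 15 TPM in the knockdown and 48.1 TPM in control, 3.21-fold lower; it passed the rule for a loss (log2 -2.28) only with the shift removed, and its position is also coding sequence in another transcript. The cluster of CG9164, on the X chromosome, began 2463 bases past the TSS. It held 622 tags (17.8 TPM) in the knockdown and 0 tags in control, which is at least 272-fold higher by the exact counting interval and 335-fold over a floor of 3 tags in the pooled control. The cluster of CG42505 began 2450 bases past the TSS and left 7 bases, and it held 10.0 TPM in the knockdown and 5.94 TPM in control.

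The share of starts that fell in a given leader cluster does not depend on the scaling between the groups. It could be compared for 1601 clusters with at least 1 TPM in the denominator in both groups; a further 289 tested clusters lay in genes with no cluster at an annotated TSS. The median share was 14.2% in the knockdown and 3.15% in control. It was at least 20 percentage points higher in the knockdown for 377 clusters, 23.5% (21.5 to 25.7), and at least 20 points lower for 99, 6.18% (5.11 to 7.47). Over all 14831 sense clusters away from annotated TSSs, 37.2% were higher by that much and 3.01% were lower. The 5' UTR clusters were thus less often higher than such clusters as a whole (36.5 to 38.0), and more often lower (2.75 to 3.30). The pool is made mostly of coding-exon clusters, of which 0.593% were lower; of intron clusters 38.6% were higher and 7.43% were lower (6.61 to 8.35), an interval that overlaps that of 5' UTR clusters. Because other leader clusters of the gene are left out, more than 1 cluster of a gene can pass 50%. Clusters of CG42505, for example, stood at 73.5% and 70.5% in the knockdown. By this measure a leader cluster took more than 50% of the starts in 337 cases in the knockdown and 205 in control. Both groups shared 145 of these, so that 192 were in the knockdown alone and 60 in control alone. As a share of those compared this was 21.0% in the knockdown (19.1 to 23.1) and 12.8% in control (11.3 to 14.5). Over all sense clusters away from annotated TSSs it was 20.9% in the knockdown (20.3 to 21.6) and 4.75% in control (4.42 to 5.11). Of intron clusters it was 22.2% in the knockdown and 8.87% in control (7.97 to 9.87), and of coding-exon clusters 1.53% in control. In control the 5' UTR share thus lay above these, with introns nearest, and in the knockdown it did not stand apart. Clusters whose span came near an annotated TSS are included. Starts at that TSS may count as leader starts in them, and their part in the control share was not tested.

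The 2 terms of the share moved differently among the clusters. Of the 377 with a higher share, 195 were gained, and the annotated TSS level of the gene was within 2-fold for 237, fell for 28 and rose for 2. Of the 99 with a lower share, 23 were lost, and the annotated TSS level was within 2-fold for 49, rose for 18 and fell for 0.

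Single genes were compared where the denominator reached 10 TPM in both groups, which 1165 clusters did. Larger rises exist below that limit, as in pre-mod(mdg4)-G (97.4% in the knockdown, 4.76% in control). Above it the largest rise in share was in vig, which encodes a component of the RNA-induced silencing complex. Its leader cluster, on chromosome 2L from 15067924 to 15068080, took 94.9% of the starts in the knockdown (93.3 to 96.2) and 14.3% in control (13.8 to 14.9). The cluster itself held 23.6 TPM in the knockdown and 40.5 TPM in control. The separate cluster at an annotated TSS of vig held 1.26 TPM in the knockdown and 242 TPM in control. The share of vig therefore rose with a lower level of that separate cluster and no higher level of the leader cluster. The span of the leader cluster covered the annotated TSS from which its distance was measured. Starts at that TSS may thus be counted as leader starts.

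In other genes the leader start itself was higher. PRL-1 encodes a phosphatase of the regenerating liver family. Its cluster, 720 bases into a leader of 1382 on chromosome 2L from 16249552 to 16249694, held 82.6 TPM in the knockdown and 0.212 TPM in control. Its share was 77.7% in the knockdown (76.4 to 79) and 0.361% in control (0.207 to 0.630). The gene Ras85D encodes the Ras GTPase of receptor tyrosine kinase signalling. Its cluster, in exon 2 on chromosome 3R from 9512135 to 9512317, left 26 of 441 bases and held 32.6 TPM in the knockdown and 0.672 TPM in control, and its share was 71.9% in the knockdown and 2.45% in control. Rbp6, an RNA-binding protein of the Musashi family, had a cluster 892 bases into a leader of 1006, with a share of 95.1% in the knockdown and 18.7% in control. The cluster of Ent2, a nucleoside transporter, had a share of 87.8% in the knockdown and 11.3% in control, and that of CG34164 80.8% in the knockdown and 2.52% in control. P58IPK (90.9% in the knockdown, 17.6% in control) and scny (80.2% in the knockdown, 11.4% in control) complete the 8 largest rises above that limit.

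In the genes with the 6 largest falls in share above the same limit, the leader start took most of the starts in control. The cluster of CG15695 held 4 tags in the knockdown (0.114 TPM) and 43.1 TPM in control, and its share was 0.264% in the knockdown (0.103 to 0.676) and 73.4% in control (71.8 to 74.8). The annotated TSS of CG15695 held 43.3 TPM in the knockdown and 15.7 TPM in control. The share was 32.7% in the knockdown and 95.7% in control for jar. It was 14.6% in the knockdown and 75.2% in control for qua, a villin-related actin-binding protein, and 37.0% in the knockdown and 89.2% in control for Su(var)2-10, a SUMO ligase of the PIAS family. The clusters of jar, qua, Su(var)2-10 and CG15695 were also called lost. The share of cdi, a kinase, was 28.3% in the knockdown and 76.3% in control, and that of CG42699 was 15.6% in the knockdown and 71.3% in control; neither of these clusters passed the rule for a loss, though CG42699 (log2 -1.96) did with the shift removed (-2.42).

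**Figure D5:**
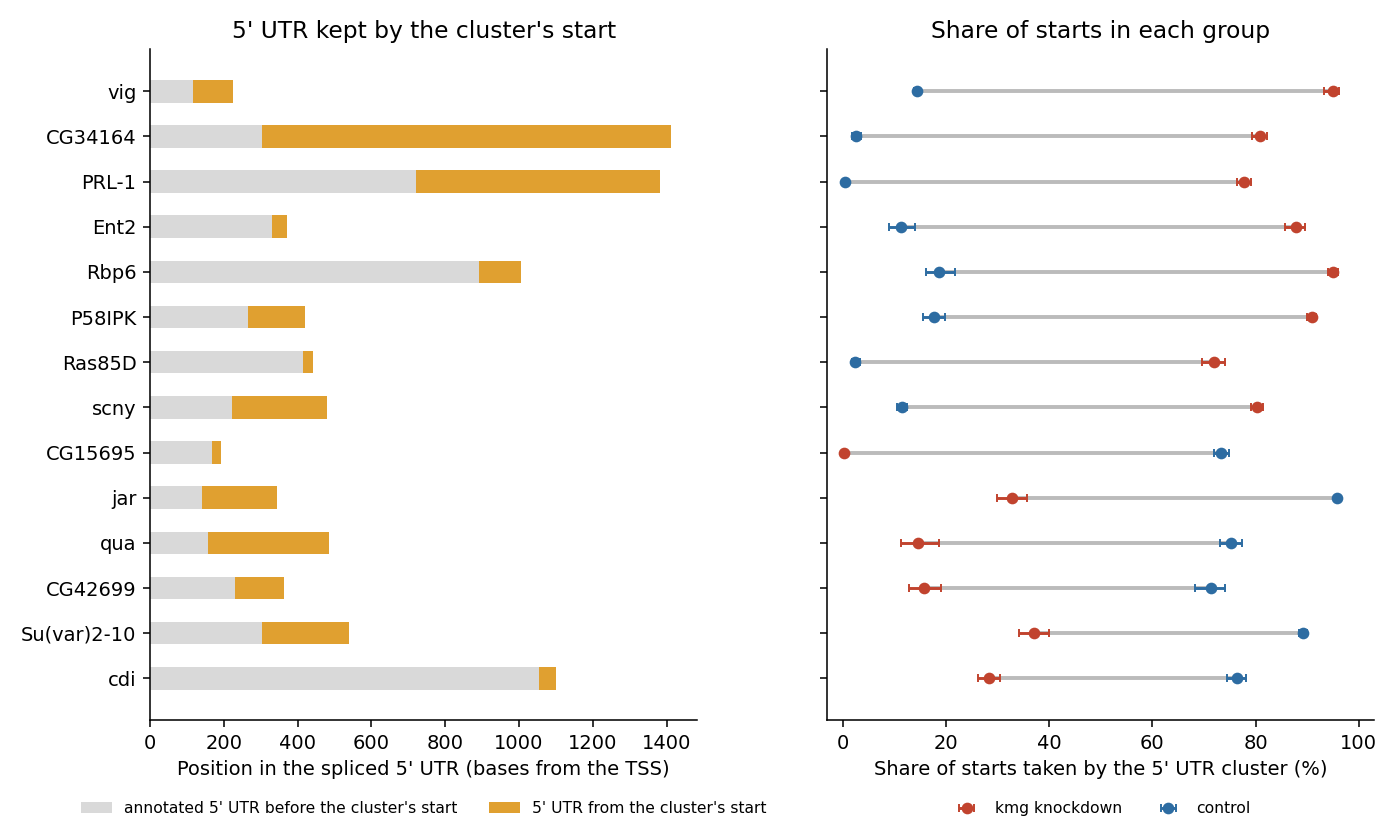
Left, annotated 5' UTR of the genes with the largest moves in share among those with at least 10 TPM in the denominator in both groups, in spliced bases from the TSS, with the part kept by a start in the leader cluster coloured. Right, share of the gene's starts taken by that cluster (%) in the knockdown and in control, with 95% Wilson intervals. In vig the share was 94.9% in the knockdown and 14.3% in control, and in jar it was 32.7% in the knockdown and 95.7% in control.

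The shares were turned into leader lengths for the 551 genes with 1 such cluster and 1 cluster at the annotated TSS of the same transcript. The mean 5' UTR length, weighted by tags at both starts, had a median of 259 bases in the knockdown and 310 bases in control, for annotated lengths with a median of 360. The median difference, knockdown minus control, was -15 bases. The mean leader was shorter by at least 50 bases in the knockdown in 179 genes (32.5%) and longer by at least 50 bases in 26 (4.72%). All 551 genes were chosen for holding a leader cluster, so these counts have no share over other genes beside them. Over all sense clusters away from annotated TSSs, 37.2% rose in share by at least 20 points and 3.01% fell. For 5' UTR clusters these were 23.5% and 6.18%, so a rise in share was not particular to leaders. Among genes named above, the mean leader of Rbp6 was 158 bases in the knockdown and 839 bases in control, that of Ent2 was 82.3 bases in the knockdown and 335 bases in control, and that of P58IPK was 181 bases in the knockdown and 374 bases in control. The mean leader of CG15695 was 193 bases in the knockdown and 70.5 bases in control, and that of Cdc14 was 380 bases in the knockdown and 327 bases in control.

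Few genes of the listed pathways had a 5' UTR cluster. In the Kmg and NuRD list, 2 of 9 genes, MEP-1 and Caf1-55, had 5 such clusters, and none was gained or lost (median log2 1.5). The Caf1-55 cluster nearest the TSS held 3.17 TPM in the knockdown and 8.0 TPM in control, and the other, which left 3 bases, held 2.94 TPM in the knockdown and 0.230 TPM in control. Caf1-55, a histone-binding protein, was also the only gene with such a cluster in the list of tMAC and tTAF regulators of spermatocyte transcription. In the translation initiation list, 4 of 15 genes had 7 clusters, and none was gained or lost (median log2 -0.18). The main cluster of eIF4E1, the cap-binding protein, held 126 TPM in the knockdown and 125 TPM in control. That of eIF4A, the RNA helicase, held 80.0 TPM in the knockdown and 93.2 TPM in control. The eIF4A span covered an annotated TSS, and the eIF4E1 span came within 100 bp of one or covered it. Tags of these clusters may thus include starts at annotated TSSs.

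Single clusters were gained in 4 other lists. Ubx, a Hox gene of segment identity, was the 1 of 8 Hox genes with a 5' UTR cluster, which began 882 bases into a leader of 963 and held 374 tags (10.7 TPM) in the knockdown and 0 tags in control. In the Notch and EGFR list Ras85D had 2 clusters, the gained one described above and another at 5.78 TPM in the knockdown and 2.34 TPM in control. In the cell cycle list the CycE cluster, of the cyclin that drives entry into S phase, held 4.15 TPM in the knockdown and 0 tags in control. It did not pass with the shift removed (log2 1.82). The cluster of fzy, an activator of the anaphase-promoting complex, held 69.4 TPM in the knockdown and 24.9 TPM in control without passing. The span of the fzy cluster came within 100 bp of the annotated TSS. In the list of RNA-binding regulators, 4 genes had 8 clusters (median log2 0.55) and 1 was gained, in Syp, at 14.4 TPM in the knockdown and 0.0885 TPM in control; it took 2.27% of the Syp starts in the knockdown.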

How the data were processed

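CAGE libraries from testes were deposited as 3 tables: the tag clusters of each group, pooled over its 2 libraries, and a consensus list. The level column is headed TPM per the file headers but holds whole numbers, so it was read as the authors' tag count, pooled and not normalized. The submitters' processing notes list STAR 2.7.11b, Trim Galore 0.6.6 and bedtools, with builds dm6 and BDGP6; for the clustering tool, none is given in the sources used here. The interquantile width, a score in bp, was deposited by the authors.

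Deposited starts count from 0 and were made 1-based. Counts were scaled to 1000000 per group, which leaves the depth, 34975246 knockdown and 56519714 control tags, as the limit on precision. Tag clusters were joined to overlapping consensus clusters of their strand, and positions to the Ensembl release 115 annotation, with the nearest upstream TSS giving the transcript. A 4-fold rule with a pseudocount of 1 TPM took the place of a test. Calculations used Python 3.11.15, pandas 2.3.3, numpy 2.4.6 and scipy 1.17.1 and were tested on simulated data.

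Named were the 10 highest gained, 6 highest lost and 6 highest steady clusters, the 5 furthest ones at 10 TPM or more, and the 8 largest rises and 6 largest falls in share where the denominator reached 10 TPM in both groups. The members and lists were chosen with earlier results of these data known. Letters at the start position and upstream start codons had been planned and were not analysed here, since no genome sequence was used. The alternatives tried are given in the closing section.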

Additional observations from a re-analysis of the deposited data

How the results depend on the processing

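No paired analysis was possible because the tables pool the 2 libraries of each group; leaving out a replicate was not run for the same reason. Of the 5' UTR clusters, 394 were gained and 62 lost. A pseudocount of 0.5 TPM gave 695 gained and 110 lost, 3 TPM gave 135 and 29, a minimum of 10 TPM gave 160 and 37, and removing the shift gave 214 and 105. A distance of over 50 bp from a TSS gave 2979 clusters with 99 lost, and over 500 bp gave 466 with 127 gained and 15 lost. A 2-fold rule, chosen after seeing the data, gave 958 gained and 285 lost. The counts stayed within 1.5 times of these without a minimum, with 50% overlap, without positions that are also coding, and, both chosen after seeing the data, without spans near a TSS and without TSSs of transposable elements. Taking the farthest upstream TSS gave a median spliced distance of 269 bases (genomic 317 bp) and 65.0% removed. Clusters at 10 TPM or more gave 229 bases (263 bp), 65.8% removed and 125 bases left, over 50 bp gave 171 (182 bp), 53.1% and 146, and over 500 bp gave 599 (1148 bp), 76.4% and 180.5. Share moves counted 587 higher and 172 lower at 10 points, 251 and 57 at 30 points, and 150 and 49 with 10 TPM in the denominator. Sharp clusters were 15.1% at 5 bp and 27.6% at 20 bp. No named cluster called gained or lost changed sign; mbf1, not called, went to -0.06 with the shift removed, against 0.65. The causes of these moves were not tested.

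The limits are the single pooled value per group, the read length that follows genotype, and the depth, which at 1 TPM gives about 35 tags in the knockdown and 57 in control.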

Other observations

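Some genes held several 5' UTR clusters, which did not move alike. CG17724, CG34310 and CG44435 held 7 each, the most of any gene. These genes, and ATP8A, were chosen after their values were seen. Most of the positions in CG17724 and CG44435, and all in CG34310, are also coding sequence in another transcript. Of the 7 in CG17724, 2 were gained, both at such positions. The lower of them did not pass with the shift removed (log2 1.55). The higher gained cluster, on chromosome 2R from 13186858 to 13187026, held 28.8 TPM in the knockdown and 0.602 TPM in control. The annotated TSS of CG17724 held 5.95 TPM in the knockdown and 0.142 TPM in control. In CG34310 1 of the 7 was gained, at 5.12 TPM in the knockdown and 0 tags in control, and the annotated TSSs of CG34310 held 128 TPM in the knockdown and 107 TPM in control. In ATP8A, which encodes a phospholipid-transporting ATPase, a cluster in exon 2 held 104 TPM in the knockdown and 147 TPM in control, and the other 4 clusters of the gene held under 5 TPM in both groups.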
